A study of Bostrychia moritziana with 3 samples.

Results

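Male and female gametophytes of the red alga Bostrychia moritziana were compared transcript by transcript, over the 20061 assembled transcripts that were listed for both sexes and reached at least 1 RPKM in either of them. These are 20061 of the 36534 transcripts listed for any of the 3 life stages of the series. RPKM counts reads per kilobase of transcript in every 1000000 reads mapped, so levels can be set side by side between transcripts. The male gametophytes were thalli forming clusters of spermatangia, and the female gametophytes were thalli forming carpogonial branches. Both were of strain 2746 and were kept as unialgal cultures in the same medium at the same temperature and day length, as was the tetrasporophyte, which enters here only as a further level for the same transcripts. Whole thalli were harvested, and the share of reproductive cells in them is not given in the sources used here. Each sex had 1 library, so the spread between replicate cultures is unknown, no statistical test between the sexes was made, and every difference is one between these libraries.

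Red algae have no flagellated cells at any stage. The male gametophyte releases small non-motile spermatia from spermatangia, and a spermatium that sticks to the trichogyne, the hair-like tip of the carpogonium, delivers its nucleus to the egg. In a species with separate sexes, meiosis in the tetrasporophyte yields the spores that grow into male or female gametophytes, so sex is a property of the haploid plant. Transcripts are identified by an assembly number alone (ISGT and a number), which the files do not pair with a gene name, a function or a sequence. The sex labels could therefore not be checked against marker genes, no gene family could be followed, and few transcripts are named. In whole thalli, fewer cells of a type and less RNA per cell cannot be told apart.

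The files state no read totals. Among 3624 transcripts between 0.3 and 3 RPKM in both sexes, log2 ratios of male to female were scanned for the value that most exceeded its surroundings. It was 0.16, with 71 transcripts against 32.5 in windows of the same width beside it, a contrast that the scan itself maximised. If equal read numbers underlie that step, female reads totalled 1.12 times the male ones. That reading of the step was not tested. The listed values summed to 502957.73 RPKM for males and 455671.85 RPKM for females, and the sums rested on similar numbers of transcripts: the 1289 most abundant made up 50% of the male sum and the 1228 most abundant 50% of the female sum.

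Most transcripts stood at similar levels in the sexes, and those that did not were more often higher in the male. Ratios between the sexes were taken after adding 1 RPKM to each value, which understates the difference of low transcripts. On this scale 1852 transcripts (9.23% of those compared) exceeded the female level at least 4-fold, and 647 (3.23%) exceeded the male level by as much. They are called male-higher and female-higher here. At 2-fold the counts were 5108 (25.5%) and 1777 (8.86%), and 13176 transcripts (65.7%) lay within 2-fold. At 16-fold they were 299 (1.49%) and 150 (0.748%), and at 64-fold 52 (0.259%) and 17 (0.0847%). The counts of male-higher transcripts were thus 2.88, 2.86, 1.99 and 3.06 times the female counts at 2, 4, 16 and 64-fold. With a pseudocount of 0.1 RPKM in place of 1, the 4-fold counts were 4149 and 1033.

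**Figure D1:**
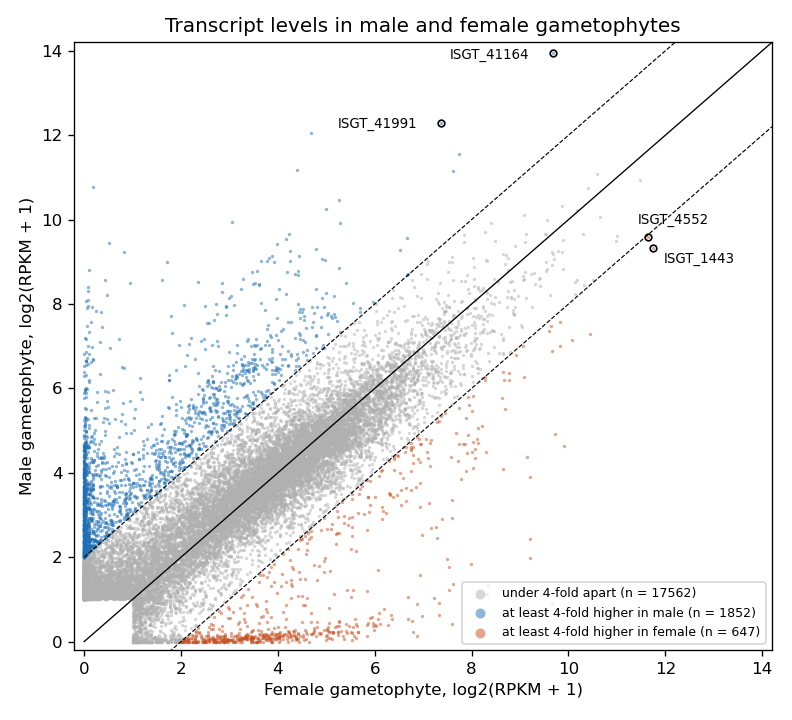
Each point is 1 of the 20061 transcripts, placed by its log2(RPKM + 1) in the female (x) and male (y) library; the solid line marks equal levels, the dashed lines 4-fold, and circles the 2 male-higher and 2 female-higher transcripts named in the text. The 1852 male-higher transcripts outnumber the 647 female-higher ones, and both groups have many members close to 0 in the other sex.

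The log2 ratio of male to female had a median of 0.20, with quartiles at -0.34 and 1.01. Its 5th and 95th percentiles were -1.47 and 2.74, and the 1st and 99th were -3.66 and 4.47, so the upper tail reached further than the lower one. Median-of-ratios scaling, which sets the typical transcript present in both libraries to a ratio of 1, lowered the log2 ratio by 0.24 and brought the median over the same transcripts to -0.01. After it, 1642 transcripts were male-higher and 747 female-higher. The 4-fold border cut through a continuous distribution. Between 3.6 and 4-fold there were 247 transcripts on the male side and 87 on the female side, and between 4 and 4.4-fold there were 208 and 68. The male-higher transcript nearest to the border had 40.04 RPKM in males against 9.26 RPKM in females, and the nearest one left out had 10.85 and 1.97 RPKM.

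The minimum of 1 RPKM left out 10387 transcripts listed for both sexes. The male value was the higher in 8046 of these and the female value in 2316. Just under the minimum, 601 transcripts had a higher value between 0.9 and 1 RPKM, and just above it 477 lay between 1 and 1.1 RPKM.

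Moderate and large differences took different shares of the 2 libraries. Transcripts within 2-fold held 59.1% of the summed male RPKM and 69.3% of the female. The male-higher transcripts held 24.0% of the male sum, spread over all fold classes: 5.16% between 4 and 8-fold, 5.16% between 8 and 16-fold, 6.98% between 16 and 32-fold, 2.93% between 32 and 64-fold, and 3.80% at 64-fold or more. In the class between 16 and 32-fold, ISGT_41164 alone held 3.12% of the male sum and ISGT_41991 held 1.00%. The female-higher transcripts held 10.8% of the female sum. More of that lay close to the border, with 5.61% between 4 and 8-fold against 0.984% at 64-fold or more. In the class between 4 and 8-fold, ISGT_1443 alone held 0.758% of the female sum and ISGT_4552 held 0.698%.

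Large differences were also those of more abundant transcripts. Male-higher transcripts between 4 and 8-fold had median levels of 7.07 RPKM (male) against 0.42 RPKM (female). The 52 at 64-fold or more had medians of 153.8 and 0.08 RPKM. On the female side, the 304 transcripts between 4 and 8-fold had medians of 8.26 RPKM (female) against 0.615 RPKM (male), and the 17 at 64-fold or more had 183 and 0.90 RPKM. A low transcript cannot reach a high ratio with a pseudocount of 1, so part of this order is set by the scale.

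**Figure D2:**
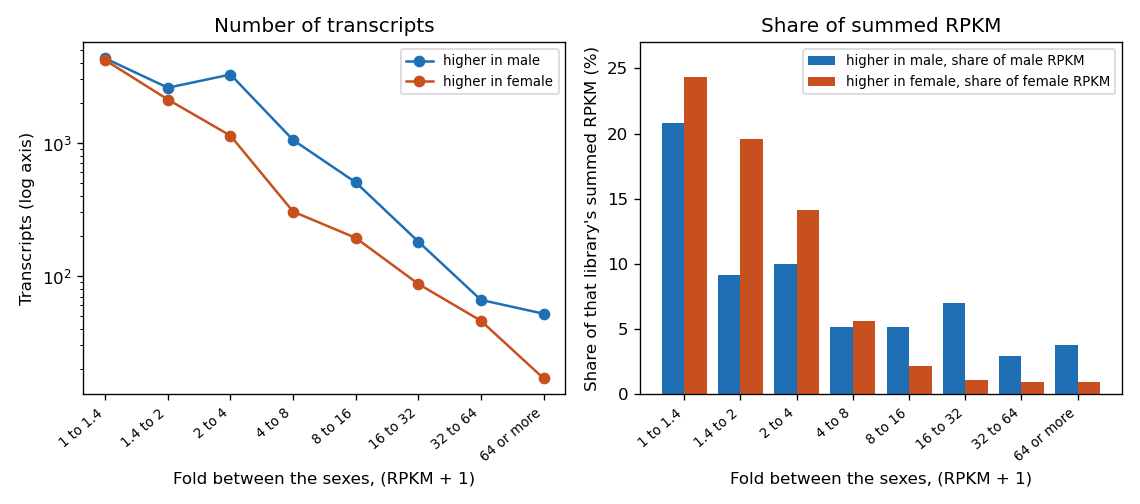
Number of transcripts (left, log axis) and share of the summed RPKM of the library in which they were higher (right), by fold between the sexes after adding 1 RPKM. Male counts exceed female counts in every class, while the female shares are larger up to 8-fold and the male shares larger beyond it. Between 4 and 8-fold the shares are 5.61% (female) and 5.16% (male), and ISGT_1443 and ISGT_4552 hold 0.758% and 0.698% of the female sum.

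The 2 sexes differed in which single transcripts dominated them. The male-higher transcript with the largest difference in level was ISGT_41164, at 15688 RPKM in males against 822 RPKM in females and 369 RPKM in tetrasporophytes (log2 ratio of male to female 4.25). Its rank was 1 in the male and 28 in the female, so it was among the most abundant transcripts of both. ISGT_41991 followed at 5036 RPKM in males against 163.5 RPKM in females (log2 ratio 4.94), with 65.6 RPKM in the tetrasporophyte. It was the number 2 transcript of the male and number 377 of the female.

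On the female side the 2 largest differences were smaller ones, between levels that were high in both sexes. ISGT_1443 reached 3453 RPKM in females against 644 RPKM in males (log2 ratio -2.42), with ranks of 1 and 40. ISGT_4552 reached 3182 RPKM in females against 763 RPKM in males (log2 ratio -2.06), with ranks of 2 and 29, just past the 4-fold border. Both had a tetrasporophyte level near that of the male, at 776 and 678 RPKM.

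The next 8 male-higher transcripts by difference in level ran from 982 to 4231 RPKM in the male and from 0.14 to 212 RPKM in the female, with log2 ratios between 3.54 and 10.57. All 8 were at least 4-fold below the male level in the tetrasporophyte (RPKM with nothing added), where they ran from 0.59 to 321 RPKM. The next 8 female-higher transcripts ran from 807 to 1403 RPKM in the female and from 0.88 to 190 RPKM in the male, with log2 ratios between -8.76 and -2.25. Of these, 6 were at least 4-fold below the female level in the tetrasporophyte.

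The male excess was more concentrated in its leading transcripts than the female excess. Summed over the 11989 transcripts higher in the male by any amount, the excess came to 182026 RPKM, of which ISGT_41164 alone made up 8.17% and the first 10 transcripts 20.0%. Summed over the 8059 higher in the female, it came to 137668 RPKM, of which the first transcript made up 2.04% and the first 10 made up 10.02%. It took 220 transcripts to reach 50% of the male excess and 290 to reach 50% of the female excess. An excess of at least 100 RPKM was about as frequent in either direction, with 251 transcripts for the male and 238 for the female. At 1000 RPKM the counts were 9 and 6.

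Leading transcripts of one sex were not always leading ones of the other. The 10 most abundant male transcripts, all at 1710 RPKM or more, had a median rank of 270 in the female, and the lowest-ranked of them stood at 17618. Of these, 7 were male-higher and 3 lay within 2-fold. The 10 most abundant female transcripts, all at 1347 RPKM or more, had a median rank of 28.5 in the male and none ranked below 403 there. Of these, 3 were female-higher and 4 lay within 2-fold. The gap in median rank was smaller for the 100 most abundant, at 203.5 for the male's against 126 for the female's. For the 1000 most abundant the order turned, at 780 against 852.5. Of these 1000 of each sex, 571 were shared. The male's 1000 included 273 male-higher transcripts and 540 within 2-fold, and the female's 1000 included 126 female-higher transcripts and 644 within 2-fold.

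Most transcripts abundant in both sexes stood at similar levels, but asking for abundance in both itself leaves out transcripts that are far apart. At 100 RPKM or more in both, 317 of 395 transcripts (80.3%) lay within 2-fold and 212 within 1.41-fold. Classed by the higher of the 2 values, 48.65% lay within 2-fold between 100 and 300 RPKM. That share was 40.5% between 300 and 1000 RPKM and 27.6% at 1000 RPKM or more. At 500 RPKM or more in both sexes there were 25 transcripts, of which 19 lay within 2-fold and 11 within 1.41-fold. The closest was ISGT_4128, with 1207 RPKM in males, 1161 RPKM in females and 418 RPKM in tetrasporophytes. ISGT_4669 stood at 807 and 737 RPKM, and ISGT_41210 at 805 and 732 RPKM in male and female. ISGT_4515 was the next, at 1710 and 1347 RPKM in male and female (log2 ratio 0.34), and ranked 10 in each, but stood at 104 RPKM in the tetrasporophyte. Median-of-ratios scaling turned the log2 ratios of the first 3 from 0.06, 0.13 and 0.14 to -0.19, -0.11 and -0.11, so no order of the sexes can be read from them.

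The balance of the sexes changed with the level of the transcript. Classed by the higher of the 2 values, transcripts between 1 and 3 RPKM had a median log2 ratio of 0.77, those between 3 and 10 RPKM 0.31, and those between 10 and 30 RPKM 0.08. In the next classes, 30 to 100, 100 to 300 and 300 to 1000 RPKM, the median lay on the female side, at -0.10, -0.16 and -0.19. The 29 transcripts at 1000 RPKM or more had a median of 0.06. After median-of-ratios scaling the lowest 2 classes kept medians on the male side, at 0.65 and 0.11, and those from 10 RPKM up lay on the female side, between -0.43 and -0.15.

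Above 3 RPKM, the share of transcripts 4-fold apart was smallest at medium levels and largest among the most abundant. It was 8.67% male-higher and 3.19% female-higher between 10 and 30 RPKM, 18.4% and 9.58% between 100 and 300 RPKM, and 50 and 27 of 200 transcripts, respectively, between 300 and 1000 RPKM. Of the 29 transcripts at 1000 RPKM or more, 9 were male-higher, 4 female-higher and 27.6% within 2-fold. Between 1 and 3 RPKM no transcript can pass 4-fold with a pseudocount of 1, and none did.

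**Figure D3:**
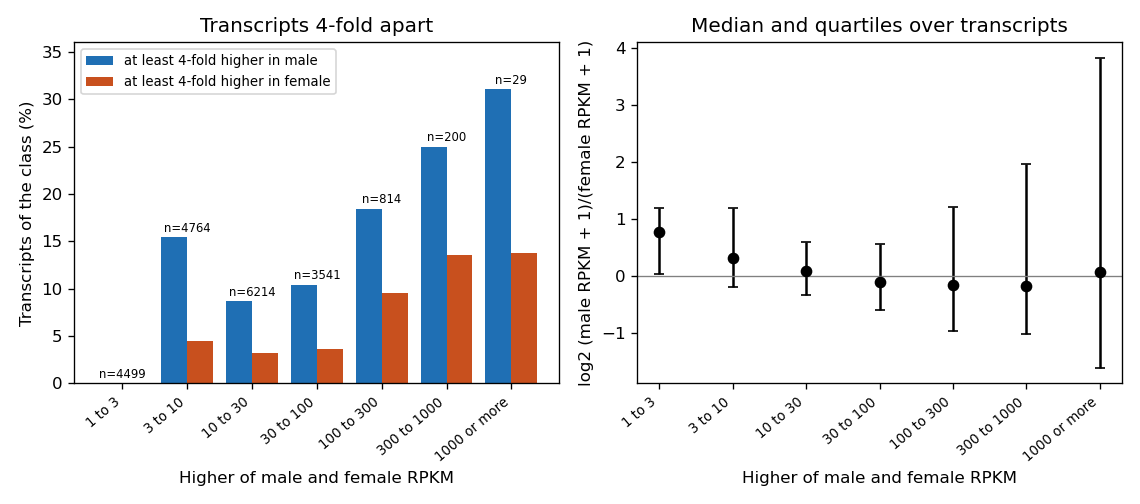
Share of transcripts at least 4-fold higher in either sex (left) and median log2 ratios (male to female) with quartiles over transcripts (right), by the higher of the male and female RPKM; the quartiles are spread over transcripts, not replicate error. The male shares exceed the female shares from 3 RPKM up, while the median moves from 0.77 in the lowest class to -0.19 between 300 and 1000 RPKM.

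The counts can also be given by the level in the lower sex, as a description, since a minimum in both sexes itself leaves out transcripts that are far apart. Where both sexes had at least 10 RPKM, 192 of 7718 transcripts were male-higher and 103 female-higher, and 84.8% lay within 2-fold. Where both had at least 100 RPKM, 7 of 395 were male-higher and 11 female-higher, with a median log2 ratio of -0.17. At least 1 RPKM in the male and under 1 RPKM in the female was found for 4119 transcripts (20.5%), against 1125 (5.61%) in the reverse direction. At 10 RPKM or more in one sex and under 1 RPKM in the other, there were 414 on the male side and 221 on the female side. At 100 RPKM or more, there were 33 and 10.

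Exact zeros were more frequent in the female, and mostly among low transcripts. In the female, 1443 of the compared transcripts were listed at 0, with a median of 1.84 RPKM and at most 111.5 RPKM in the male. By transcript number, 871 of them were among the 1475 compared in 20000 to 24999. A further 277 were among the 404 in 25000 to 38499, and 211 among the 12670 in 1 to 15999. In the male, 175 were listed at 0, with a median of 2.01 RPKM and at most 23.8 RPKM in the female. These were 1443 of the 4119 under 1 RPKM in the female and 175 of the 1125 under 1 RPKM in the male. At 10 RPKM or more in the other sex, 102 of 414 were at 0 in the female and 15 of 221 in the male. Of the 10 at 100 RPKM or more in the female and under 1 RPKM in the male, 2 were above 0 to 0.3 RPKM and 8 above 0.3 RPKM there. Of the 33 such transcripts of the male, 1 was at 0 in the female, 25 were above 0 to 0.3 RPKM and 7 above 0.3 RPKM. A gene silent in one sex and a transcript too low to be sampled cannot be told apart at an unknown depth.

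The differences between the sexes were not spread evenly over the assembly. Transcripts were grouped by number, in ranges drawn after their values were seen. The files do not say what the order of the numbers stands for. In the first range, numbers 1 to 15999, 900 of 12670 transcripts (7.10%) were male-higher and 358 (2.83%) female-higher. The last range, from 38500 up, had 316 (8.21%) and 82 (2.13%) of 3849. The small range from 18500 to 19999 had 64 (14.4%) and 9 (2.02%) of 445. The first and last range held most of the compared transcripts and had typical levels of 12.1 and 13.7 RPKM in the male and 9.79 and 13.0 RPKM in the female (medians).

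Between them lay 2 stretches with opposite balance. In numbers 16000 to 18499, 197 of 1218 transcripts (16.2%) were female-higher and 120 (9.85%) male-higher. In the block from 17500 to 17999 the female-higher share reached 27.5% and the male-higher share was 6.27%. In numbers 20000 to 24999, 446 of 1475 transcripts (30.2%) were male-higher and 1 was female-higher. The block from 23000 to 23499 held the highest male-higher share, 51.2%. From 25000 to 38499 only 404 transcripts reached 1 RPKM. Of these, 277 (68.6%) were at 0 in the female, and the medians were 1.26 RPKM in males and 0 RPKM in females. Male-higher were 6 of them and female-higher none, on a scale where transcripts between 1 and 3 RPKM cannot pass 4-fold. Over the 67 blocks of 500 numbers with at least 20 compared transcripts, male-higher transcripts were the more numerous in 60, female-higher ones in 4, and 3 were tied.

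Levels and zeros moved with these ranges. The median in numbers 20000 to 24999 was 1.97 RPKM in males and 0 RPKM in females, and 59.1% of the compared transcripts there were at 0 in the female, against 1.67% in numbers 1 to 15999. The 446 male-higher transcripts of that stretch held 0.920% of the summed male RPKM. The 316 of the last range held 11.6%, of which ISGT_41164 made up 3.12% and ISGT_41991 1.00% of the male sum, and the 900 of the first 10.1%. So the stretch added many transcripts but little summed RPKM to the male side. The 197 female-higher transcripts of numbers 16000 to 18499 held 0.804% of the summed female RPKM, and 132 of them were missing from the tetrasporophyte listing. The part of assembly order, of level and of reads from another source in these counts was not tested. Leaving out the 27 blocks in which over 50% of the listed transcripts were at 0 in the female, a choice made after seeing the data that favours the removal of transcripts low in the female, gave 1504 male-higher and 647 female-higher transcripts.

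**Figure D4:**
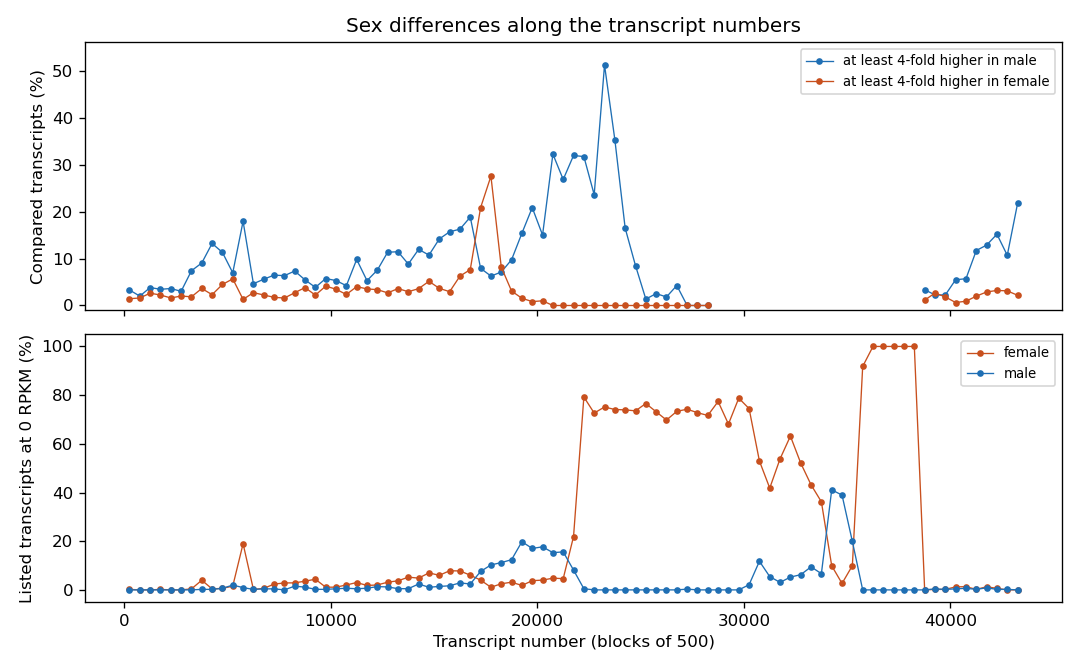
Share of compared transcripts at least 4-fold higher in either sex (top; blocks with at least 20 compared transcripts) and share of listed transcripts at 0 RPKM in each sex (bottom), in blocks of 500 transcript numbers. The female-higher share peaks at 27.5% in the block from 17500 and the male-higher share at 51.2% in the block from 23000, where most listed transcripts are at 0 in the female.

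Transcripts with consecutive numbers went the same way in some pairs and opposite ways in others. Of the 15528 such pairs, 190 had both members male-higher, 42 had both female-higher, and 81 had one of each; a transcript can belong to the pair before it and the pair after it. Over all numbers, opposite pairs were about as frequent as the overall shares. Of the neighbours of male-higher transcripts, 3.21% were female-higher, against 3.23% of all transcripts. Of the neighbours of female-higher ones, 8.00% were male-higher, against 9.23%. In numbers 1 to 15999 these shares were 3.10% against 2.83% of all in that range, and 7.36% against 7.10%. From 38500 up they were 2.75% against 2.13%, and 10.3% against 8.21%, with 16 opposite pairs. Within numbers 1 to 15999, 9.57% of the neighbours of a male-higher transcript were male-higher too, against 7.10% of all transcripts of that range, and from 38500 up the values were 10.7% and 8.21%. For neighbours of female-higher transcripts, 4.01% were female-higher against 2.83% of all in the first range, from 12 pairs with both members female-higher. In the last range the values were 1.28% and 2.13%, from 1 such pair, so no direction can be read from it. The longest unbroken runs were 5 male-higher and 4 female-higher numbers. The male run lay between 4.18 and 28.4 RPKM in the male and at most at 0.14 RPKM in the female. The female run lay between 11.8 and 106.9 RPKM in the female and between 0.08 and 22.5 RPKM in the male.

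The 2 opposite pairs with the widest gap serve as examples, chosen after their values were seen. In the widest, one transcript had 691 RPKM in males against 0.43 RPKM in females, and its neighbour 1.20 RPKM in males against 320 RPKM in females. Both were well present in the tetrasporophyte, at 294 and 986 RPKM. In the second widest pair, the levels were 29.98 and 0.15 RPKM in male and female for one transcript and 0.33 and 192 RPKM for the other, and the tetrasporophyte had 0.22 and 0.20 RPKM of them. Whether members of such a pair are related in sequence is not stated in the files and was not tested.

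The tetrasporophyte gave a further level for the transcripts that set the sexes apart. Its place was read on the log2(RPKM + 1) scale, with the midpoint between the sexes as the border. Of the 1852 male-higher transcripts, 71.7% lay below the midpoint in the tetrasporophyte, that is nearer to the female level or below it, and 136 (7.34%) were above the male. All of them were listed for the tetrasporophyte. That listing lacks 198 of the 647 female-higher ones, and the result depends on how these are read. Among the 449 that were listed, 39.2% lay below the midpoint, nearer to the male level or below it, and 60.8% at or above it, with 95 above the female. With the missing ones set to 0.3 RPKM, which places them near the male level, 57.8% of the 647 lay below the midpoint. No transcript missing from that listing was above 0.3 RPKM in the male, and none listed for the tetrasporophyte alone was below 0.3 RPKM. So 0.3 RPKM was read as the highest tetrasporophyte level of a missing transcript. It is not a plain cutoff of the listing, which holds lower values, such as the 0.22 and 0.20 RPKM of the second widest pair above. Absence thus went with a low male level as well.

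The place of the tetrasporophyte also differed between classes of fold on the female side, where the missing share did so too. Between 4 and 16-fold, 149 of 497 female-higher transcripts were missing, and 195 of the 348 listed (56.03%) were at or above the midpoint. Between 16 and 64-fold, 47 of 133 were missing, and 67 of the 86 listed (77.9%) were at or above it. At 64-fold or more, 2 of 17 were missing and 11 of the 15 listed (73.3%) were at or above it, with 7 above the female. Counting the missing ones at 0.3 RPKM gave shares of 39.2%, 50.4% and 64.7%, so the steady order over the 3 classes rests on that setting. Median levels at 64-fold or more, missing values so set, were 183 RPKM in females, 0.90 RPKM in males and 98.3 RPKM in tetrasporophytes. On the male side the shares at or above the midpoint were 28.9% of 1553, 24.3% of 247 and 30.8% of 52. The 52 transcripts at 64-fold or more had medians of 153.8 RPKM in males, 0.08 RPKM in females and 0.465 RPKM in tetrasporophytes. The difference between the sides was not tested, since each stage had 1 library. Every missing transcript was at 0.3 RPKM or less in the male, so no male-higher transcript could be among them. The female-higher ones left out were those low in the male. The listed shares of the 2 sides are therefore not over like sets. Among all female-higher transcripts, 60.8% of the listed were at or above the midpoint, against 42.2% with the missing ones at 0.3 RPKM.

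**Figure D5:**
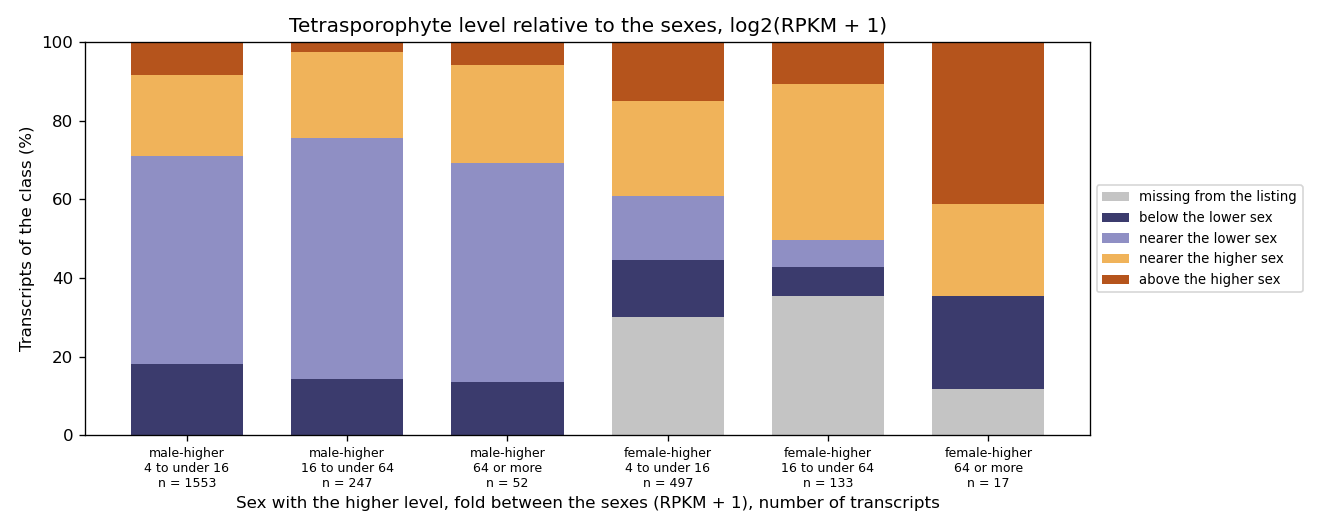
Place of the tetrasporophyte level relative to the 2 sexes on the log2(RPKM + 1) scale, as shares of the male-higher and female-higher transcripts in 3 classes of fold between the sexes, with transcripts missing from the tetrasporophyte listing in grey. The share at or above the midpoint, out of all transcripts of a class, runs from 39.2% to 64.7% over the female classes. Over the male classes it runs from 24.3% to 30.8%. Missing transcripts (149, 47 and 2) occur in the female classes only. None was above 0.3 RPKM in the male, so no male-higher transcript could be missing.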

How the data were processed

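Total RNA was extracted with TRI Reagent and sequenced as standard Illumina libraries, per the labels' protocols. The deposited files give RPKM, computed by the authors, with 1 value per transcript in each library and 2 decimals. How the reads were assembled, aligned and counted is not given in the sources used here, nor is any transcript length or read total, so no counting interval was computed.

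The male and female listings were joined by transcript number, and transcripts with at least 1 RPKM in either were kept. Ratios were computed on the log2 scale with a pseudocount of 1 RPKM and no scaling beyond that of the deposited values, and 4-fold was the border for a transcript to be called male-higher or female-higher. The code that makes the calls was checked on simulated data with known answers, which says nothing of the spread between cultures. The transcripts named are the 2 male-higher and 2 female-higher ones with the largest difference in RPKM, and up to 4 with the smallest ratio among those at 500 RPKM or more in both. The members, rules and alternatives were chosen with earlier results of these data known. Alternatives were 2 scalings, 2 filters, another pseudocount, only transcripts above 0 in both, and, added later, leaving out blocks of numbers. Python 3.11.15, numpy 2.4.6, pandas 2.3.3 and matplotlib 3.10.9 were used.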

Additional observations from a re-analysis of the deposited data

How the results depend on the processing

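Male-higher transcripts outnumbered female-higher ones under every alternative tried. With a pseudocount of 0.1 RPKM there were 4149 male-higher and 1033 female-higher transcripts, against 1852 and 647. A smaller pseudocount widens every ratio. Transcripts between 1 and 3 RPKM, which cannot pass 4-fold with 1 RPKM added, can then do so. How the added transcripts divide by level was not tested. With a filter of 10 RPKM in either sex the counts were 1117 and 436, which follows from fewer transcripts considered (10798). Dropping the filter could not change the counts, since transcripts under 1 RPKM in both sexes cannot pass 4-fold with 1 RPKM added. With each library scaled to a sum of 1000000, all values rose and 25387 transcripts were considered. The counts were then 2668 and 876. These and the remaining alternatives kept both counts within 1.5 times. The male-higher share of the summed male RPKM, 24.0%, was 22.9% with median-of-ratios scaling, 23.9% with each library scaled to a sum of 1000000, 23.2% with the filter of 10 RPKM, 25.4% with the pseudocount of 0.1, 23.3% with transcripts above 0 in both and 23.5% without the blocks mostly at 0 in the female. The female-higher share of the female sum, 10.8%, was 13.05%, 12.4%, 10.52%, 11.2% and 10.7% under the first 5 of these. No paired analysis was possible because each sex has 1 library. Depth is unknown, so values near 0 carry an unknown counting error.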
